A study of Mus musculus with 8 samples.

Results

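The genes described here are the ephrins and their Eph receptors, the semaphorins and plexins, and the Slit, Robo, netrin and Unc5 genes, families of guidance cues and receptors that act on growing axons and on growing vessels. They were taken by symbol from the names on the array: 66 genes carried by 93 probes, of 40247 features tested in all, with the brightest probe standing for a gene that has several. They comprise 8 ephrins, 14 Eph receptors, 20 semaphorins of classes 3 to 7, 9 plexins, 3 Slit, 4 Robo, 4 netrin and 4 Unc5 genes. All 66 passed the filter on dim probes, which asked for a signal well above background on at least 4 of 8 arrays, and 61 were well above background on all 8.

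RNA came from cells of mouse embryos at E12.5 in the C57Bl/6J background. Of these embryos, 4 were homozygous (-/-) for the Gata2 +9.5 mutation and 4 were wild type littermates. The mutation lies in an intronic enhancer of Gata2 and is carried by every cell of the mutant embryo, so it is not restricted to vessels. Both parents were heterozygous for it, and the embryos came from 2 litters, each with 2 embryos of each genotype. Liver and brain were removed, the rest of each embryo was dissociated with collagenase, and cells carrying CD31, also called PECAM-1, were pulled out with magnetic beads. CD31 joins endothelial cells to each other and is also found on platelets and many leukocytes. Each embryo gave 1 RNA sample and 1 array. Embryos 1 and 2 of each genotype belong to litter 1, embryos 3 and 4 to litter 2, and each litter was hybridised to a slide of its own, so that slide and litter cannot be told apart. A date-like number in the sample titles divides the arrays the same way, so it cannot be told apart from litter either.

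Ephrins are membrane-bound ligands: the A type is tethered by a lipid anchor and mainly binds EphA receptor tyrosine kinases, the B type crosses the membrane and mainly binds EphB receptors, and both partners can signal on contact. In developing vessels ephrin-B2 marks arteries and its receptor EphB4 marks veins. Semaphorins signal through plexins, in the case of most class 3 members with a neuropilin as the binding subunit, and commonly repel the growing tip of an axon or a vessel. Slit proteins are secreted ligands of Robo receptors, and netrins are secreted ligands whose repulsive receptors belong to the Unc5 family. Plexin D1, Robo4 and Unc5b are the receptors of these families best known from endothelium.

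Signals are log2 intensities minus the array's 75th percentile, so a value of 0 is the level of that percentile, and probes of different genes are not compared in level. The 75th percentile itself ran from 996 to 2481, and the share of spots well above background from 74.9% to 92.0%. Wild type 2, wild type 3 and mutant 4 stood apart from the other 5 arrays on the first principal component (58.9% of the variance). The label of the cells was checked on 20 pan-endothelial genes: all 20 were well above background on all 8 arrays, and the median of the list ran from 3.43 to 5.19 over the wild type and from 3.93 to 5.25 over the mutant arrays. Markers of other cells were present as well. The median of 7 erythroid markers ran from 3.89 to 8.29 over the arrays, and all 7 were higher in the mutants (median difference 0.51, 0 called). The median of the 9 macrophage markers measured ran from -1.07 to 1.20 over the arrays, that of 12 mesenchyme and pericyte markers from 1.15 to 2.38, that of 12 neural markers from -0.12 to 1.23 and that of 10 platelet and megakaryocyte markers from -1.67 to 2.44. Gata2, the gene whose enhancer was mutated, was at 2.00, 1.66, 0.89 and 1.42 in wild type 1 to 4 and at -1.24, -0.15, -1.27 and -1.07 in mutants 1 to 4. All mutant values were below all wild type values, and the difference of -2.42 ± 0.39 (SE) had an adjusted p of 0.0858 in limma. All 10 platelet markers were lower in the mutants, at a median difference of -2.77, with 3 genes past the adjusted threshold (background 0.0447%). Those 3 calls were lost, with all 18 of that fit, when litter or sample number enters as a block, on a pan-endothelial scale, and without wild type 1, 3 or 4 or mutant 1 or 3, where 0 features passed.

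**Figure D1:**
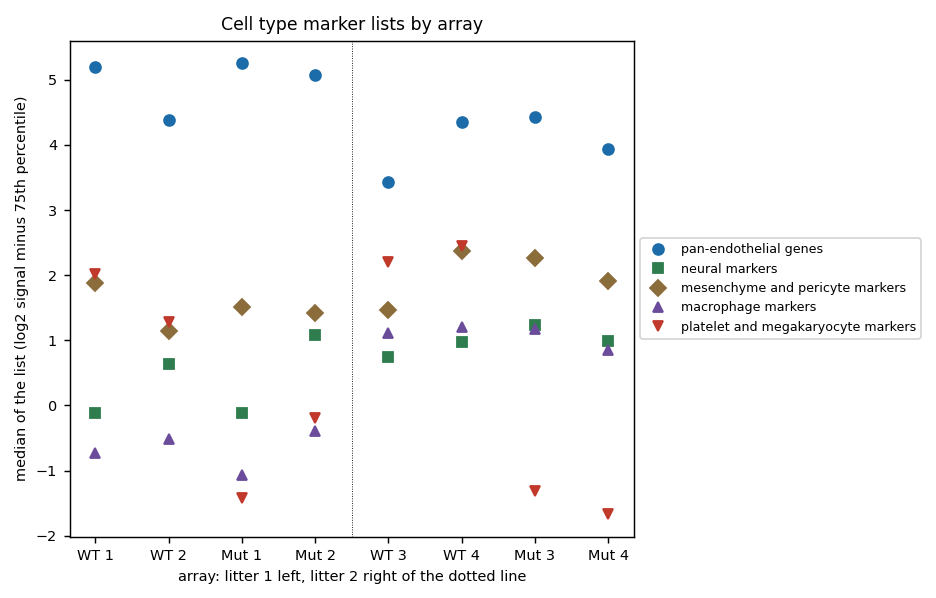
Median log2 signal (minus the array's 75th percentile) of 5 marker lists on each of the 8 arrays, litter 1 to the left and litter 2 to the right of the dotted line. Pan-endothelial genes lie between 4.38 and 5.25 in litter 1 and between 3.43 and 4.43 in litter 2, macrophage markers at -0.39 or less in litter 1 and at 0.85 or more in litter 2, and platelet markers follow genotype. Erythroid markers, at 3.89 to 8.29, are not drawn.

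The first comparison asked whether guidance genes differ between mutant and wild type CD31-bearing cells. None of the 66 genes did by limma's adjusted p of 0.05, against 0.0447% of all features (18 of 40247, each of them lower with the mutation). At an unadjusted p under 0.05 the count was also 0 of 66, where 3.05% of all features passed. Adjusted p ran from 0.717 to 0.997 and the lowest unadjusted p was 0.0835. In no gene were the 4 mutant values clear of the 4 wild type values, which 1.04% of features showed. With 4 arrays a group the SE of a difference ran from 0.30 to 0.86 with a median of 0.41, and by this test no difference was beyond the spread between embryos. That SE carries the difference between litters. With litter as a block the median SE was 0.32, the lowest unadjusted p 0.0508 (Epha4) and the lowest adjusted p 0.560, and 0 of 66 genes passed at an adjusted or an unadjusted p of 0.05.

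On the 75th-percentile scale 45 of 66 genes were higher and 21 lower in the mutants, with a median difference of 0.29 beside 0.05 for all features (21096 of 40247 higher). The split depended on the scaling: 55 were higher when arrays were set to their medians, where all features moved by 0.32, and 24 when arrays were set to the pan-endothelial genes, where all features moved by -0.28. Relative to all features the median of the 66 genes was 0.24 on the 75th-percentile scale. It was 0.24 with either of those other scalings too, but these shift every feature of an array alike, so agreement was built in. With normexp background correction and the 75th percentile it was 0.14, and with quantile normalization 0.07. The family medians were 0.29 for ephrins and Eph receptors (17 of 22 higher), 0.30 for semaphorins and plexins (19 of 29 higher) and 0.25 for the Slit, Robo, netrin and Unc5 genes (9 of 15 higher), and each was below 0 with pan-endothelial scaling (-0.044, -0.036 and -0.080). The arrays themselves were uneven across genotypes: of 63 genes with 8 values, wild type 2 gave the lowest value for 24 and wild type 3 for 18, while mutant 3 gave the highest for 22. Without wild type 2, wild type 3 and mutant 4 the medians of the 3 families were 0.0058, -0.035 and -0.0975. That fit sets wild type 1 and 4 against mutants 1, 2 and 3 with no term for litter. It is unbalanced for litter, so these medians mix in the litter difference.

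**Figure D2:**
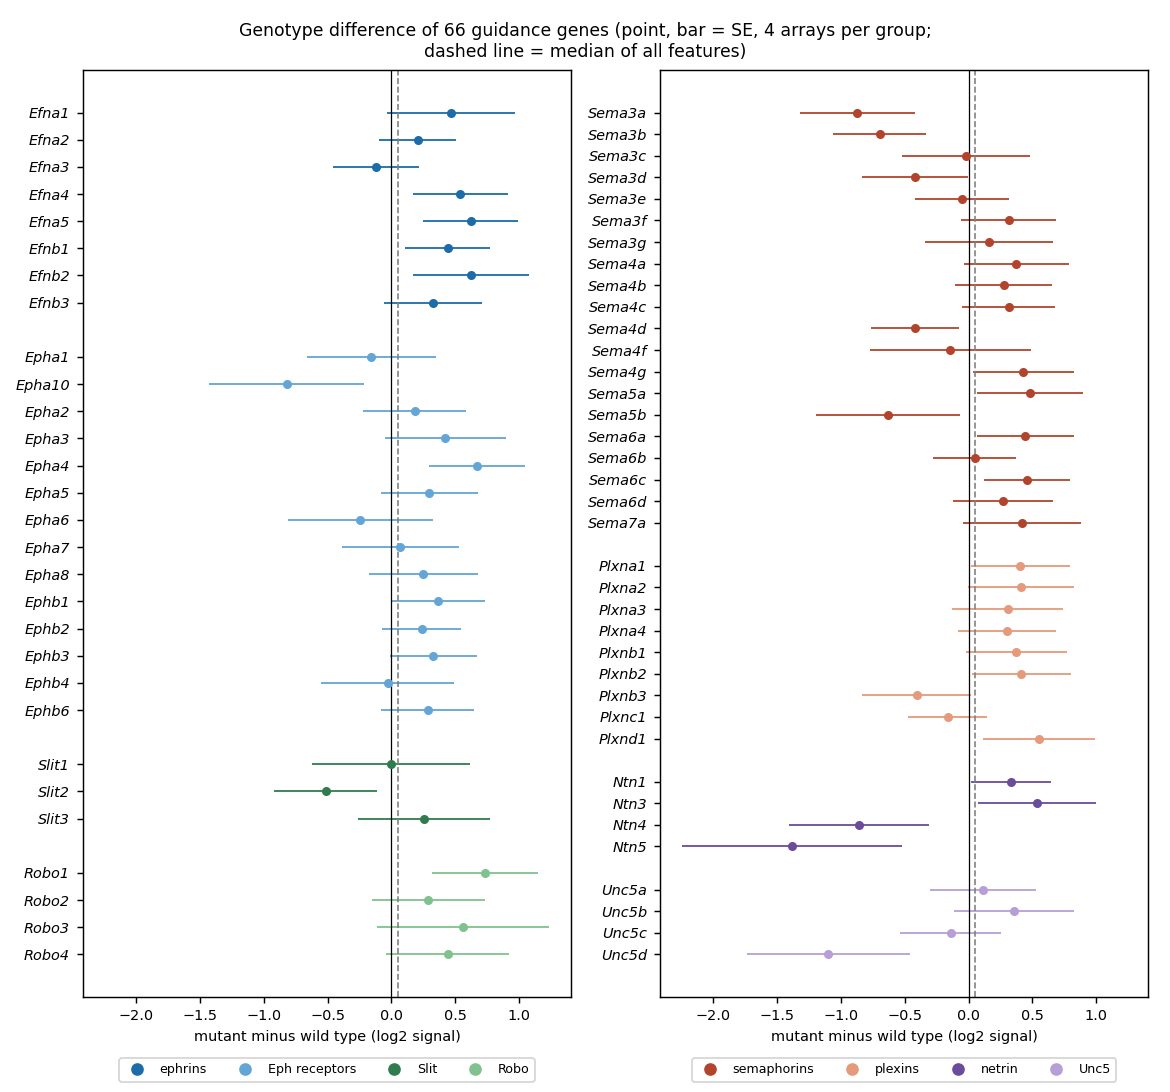
Mutant minus wild type difference in log2 signal for each of the 66 guidance genes, grouped by role, with points for the fitted difference and bars for its SE (4 arrays per genotype). The dashed line is the median of all features, 0.05, and the differences run from -1.38 (Ntn5) to 0.74 (Robo1).

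Among the ligands of the Eph system, 7 of 8 ephrins were higher on the 75th-percentile scale (median 0.45) and 5 of 8 with pan-endothelial scaling (median 0.12). Efnb2 encodes ephrin-B2 of arteries, and its probe lies at chr8:8618177-8618236 (mm9, as are all probe positions here). It was at 4.24, 3.31, 2.68 and 3.19 in wild type 1 to 4 and at 4.64, 4.46, 3.59 and 3.21 in mutants 1 to 4. The ranges of the genotypes overlapped, since wild type 1 lay above mutants 3 and 4, but within each litter both mutants were above both wild type embryos, in litter 2 by a small margin. The difference of 0.62 ± 0.45 (SE) had an unadjusted p of 0.197 and a 95% interval of -0.38 to 1.62; with litter as a block its SE was 0.31 and its unadjusted p 0.0732. Efna5, a lipid-anchored ephrin known from axon mapping, had the lowest unadjusted p of the ephrins, 0.124, with a difference of 0.62 ± 0.37 (SE). Its values were 1.33, 0.42, 1.08 and 1.75 in wild type and 1.76, 1.56, 2.22 and 1.54 in mutant embryos 1 to 4. Wild type 2 held its lowest value by a wide margin. Efna1, the ephrin induced by inflammatory signals in endothelium, differed by 0.46 ± 0.50 (SE).

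Of the Eph receptors 10 of 14 were higher (median 0.24), but 3 of 14 with pan-endothelial scaling (median -0.091). Ephb4, the venous partner of ephrin-B2, has its probe at chr5:137815646-137815705. It read 4.44, 3.85, 2.91 and 3.55 in wild type 1 to 4 and 4.66, 3.33 and 2.99 in mutants 2, 3 and 4, the spot of mutant 1 being marked as an outlier by the scanner software and left out. The high and low values of Ephb4 followed litter and not genotype, and the fitted difference was -0.03 ± 0.52 (SE) with an interval of -1.19 to 1.13. The missing spot of mutant 1 leaves that fit unbalanced for litter, so the value mixes in the litter difference. With litter as a block it was 0.16 ± 0.34 (SE), and within litters it was 0.51 in litter 1 and -0.07 in litter 2. A second, dimmer Ephb4 probe gave 0.17. Epha2, a receptor for ephrin-A1, differed by 0.18 ± 0.40 (SE). Epha4, which takes ephrins of both types, had the lowest unadjusted p among Eph receptors (0.102), at -0.85, -1.53, -0.85 and -0.12 in wild type and -0.59, -0.22, 0.10 and 0.04 in mutant embryos. Both mutants of each litter were above both wild type embryos of that litter for Epha4, while the genotypes overlapped across litters. Its difference was 0.67 ± 0.38 (SE, interval -0.16 to 1.50).

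The 20 semaphorins were split, 12 higher and 8 lower (median 0.22), with 6 higher under pan-endothelial scaling (median -0.12). Of the 7 class 3 members, the secreted ligands that mostly work with neuropilins, 2 were higher and 5 lower (median -0.053). The pair with the lowest unadjusted p of all 66 genes is among them. Sema3b, encoding a repellent of axons, was at 0.23, 1.28, 0.63 and 0.37 in wild type 1 to 4 and -0.36, -0.31, -0.11 and 0.50 in mutants 1 to 4. Mutant 4 lay inside the wild type range and the other mutants below it. The difference of -0.70 ± 0.37 (SE) had an unadjusted p of 0.0835, an adjusted p of 0.717 and an interval of -1.50 to 0.11. It was -1.09 in litter 1 and -0.30 in litter 2. Sema3a, the classical collapsing factor of growth cones, was at -0.72, 0.73, 0.53 and -0.49 in wild type and -1.08, -0.59 and -0.91 in mutants 1 to 3, mutant 4 having lost its spot. The high values of Sema3a were those of wild type 2 and wild type 3, among the arrays apart on the first principal component. Its difference was -0.87 ± 0.45 (SE, unadjusted p 0.0841), whereas its dimmer second probe gave 0.10.

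The class 3 semaphorins tied to vessels differed by less than their SE. Sema3e, the ligand of plexin D1, was at -4.01 ± 0.31 over the wild type and -4.07 ± 0.54 over the mutant embryos (SD, n = 4 each), a difference of -0.05 ± 0.37 (SE). Sema3f, a neuropilin-2 ligand, differed by 0.31 and Sema3g, a semaphorin of arterial endothelium, by 0.16, with intervals of -0.51 to 1.13 and -0.94 to 1.27. Sema6d, a membrane-bound semaphorin, differed by 0.27 ± 0.39 (SE).

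Of the 9 plexins, the receptors, 7 were higher (median 0.37), and 5 were with pan-endothelial scaling (median 0.040). Plxnd1 is the plexin of developing endothelium, with its probe at chr6:115904829-115904888. Its signal was 8.26, 7.45, 6.50 and 7.31 in wild type 1 to 4 and 8.44, 8.33, 7.68 and 7.30 in mutants 1 to 4. In litter 1 both mutants were above both wild type embryos, and in litter 2 mutant 3 was the highest while mutant 4 and wild type 4 were nearly equal. The difference was 0.55 ± 0.44 (SE), with an unadjusted p of 0.235 and an interval of -0.42 to 1.53; a second Plxnd1 probe gave 0.72. Plxna2, a receptor for class 6 semaphorins and for class 3 ones with neuropilins, differed by 0.41 ± 0.41 (SE). A second probe named Plxna2 is mapped by the array's annotation to chromosome 14 and not to chromosome 1, where the probe used lies, and was not used.

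Slit ligands and Robo receptors were measured next. All 4 Robo genes were higher on the 75th-percentile scale (0.29 to 0.74), but Robo2, named after its values were seen, was at -0.044 with pan-endothelial scaling and Robo3 at -0.098 without wild type 2, wild type 3 and mutant 4. The arrays left there are unbalanced for litter, so the Robo3 value mixes in the litter difference. Within each litter the mutants left were above the wild type left, at -0.75 and -0.34 against -0.86 and at 1.49 against 1.32. Dimmer probes gave -0.049 for Robo2, where another gave 0.26, and -0.031 for Robo3. Among the 23 guidance genes with several probes, the probes disagreed in the sign of the genotype difference for 12 and of the litter difference for 7. Robo1, a Slit receptor of axons and endothelium, had the largest positive difference of the 66 genes. Robo1 was at 2.37, 1.37, 0.91 and 1.64 in wild type 1 to 4 and 2.73, 2.74, 2.13 and 1.63 in mutants 1 to 4. Mutants 1 and 2 were above every wild type embryo, but wild type 1 was above mutants 3 and 4. The difference was 0.74 ± 0.42 (SE), with an unadjusted p of 0.105 and an interval of -0.18 to 1.65, while a second, dimmer probe gave 0.05. Robo4, a receptor of the family found mainly in endothelium, was at 6.09 ± 0.78 over the wild type and 6.53 ± 0.70 over the mutant embryos (SD, n = 4 each), a difference of 0.44 ± 0.48 (SE). Slit2 and Slit3, secreted ligands made by neural and mesenchymal tissues among others, differed by -0.52 ± 0.40 and 0.25 ± 0.52 (SE).

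Netrins and their receptors held the most negative differences of the set. Ntn5 was at -4.50, -1.54, -3.07 and -2.92 in wild type 1 to 4 and -6.90, -4.37, -3.70 and -2.60 in mutants 1 to 4, and was well above background on 6 of the 8 arrays. Its lowest value, on mutant 1, and its highest, on wild type 2, are both from litter 1. The difference of -1.38 ± 0.86 (SE) was -2.61 in litter 1 and -0.16 in litter 2 and had an unadjusted p of 0.137. Ntn1, the founding netrin of spinal cord and vessel guidance, differed by 0.33 ± 0.31 (SE), but its second, dimmer probe, well above background on all 8 arrays, gave -0.56. Ntn4, a laminin-like netrin of basement membranes, differed by -0.86 ± 0.55 (SE). Unc5b, the endothelial netrin receptor, was at 3.42 ± 0.65 over the wild type and 3.78 ± 0.75 over the mutant embryos (SD, n = 4 each), a difference of 0.36 ± 0.47 (SE). Unc5d, a receptor known from cortical neurons, was at -1.34, 0.35, 0.80 and -0.97 in wild type and -2.01, -1.29, -2.43 and 0.16 in mutant embryos. Its high values were wild type 2, wild type 3 and mutant 4, the 3 arrays apart on the first principal component, and its difference was -1.10 ± 0.64 (SE, unadjusted p 0.112).

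When limma weighted arrays by their quality, 3 genes passed for genotype where 9.4% of all features did: Robo1 higher by 1.18 (adjusted p 0.0481), and Sema3b and Unc5d lower, at -1.09 (0.0485) and -1.70 (0.0495). Over the settings tried, adjusted p ran up to 1.00 for these genes.

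The co-receptors and effectors of the same pathways gave 0 calls for genotype in limma among 22 co-receptors and 57 cytoplasmic effectors measured, and at an unadjusted p under 0.05 there were 1 and 0. Co-receptors were higher in 13 of 22 cases (median 0.28) and effectors in 48 of 57 (median 0.35), beside 0.05 for all features. Nrp1 and Nrp2, the neuropilins that bind class 3 semaphorins, differed by 0.29 ± 0.41 and 0.66 ± 0.45 (SE). The lowest unadjusted p in each direction belonged to Flrt2, a membrane protein that binds Unc5 receptors, at 0.86 ± 0.42 (SE, p 0.0646), and to Cd72, a lymphocyte receptor of Sema4d, at -1.36 ± 0.61 (SE, p 0.0481). Cd72 was at -6.49 on mutant 1 and between -4.21 and -2.71 on the other arrays, and its adjusted p was 0.717. Farp2, an effector of plexin signalling, had the lowest p among effectors (0.104), with a difference of 0.62 ± 0.35 (SE).

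The second comparison set the litters against each other with genotype in the model. Of the 66 genes 5 passed limma's adjusted threshold (7.58%), against 4.92% of all features. Robo3, Sema4f, Slit1 and Sema3c were higher in litter 2, where 4.02% of features passed in that direction, and Efna1 was lower, where 0.899% passed. The values of the litters did not overlap for 17 genes (25.8%), 13 higher and 4 lower in litter 2, beside 14.1% of all features (10.5% higher and 3.58% lower). At an unadjusted p under 0.05 there were 28 genes (42.4%), beside 25.8% of features. The median difference of the 66 genes was 0.19 and that of all features 0.32, so the genes are read against a general shift, which was -0.15 with median scaling, 0.09 with normexp background correction and 0.02 with quantile normalization.

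Robo3 encodes a divergent Robo receptor that controls the crossing of commissural axons, and its probe lies at chr9:37224357-37224416. It was at -0.86, -1.49, -0.75 and -0.34 in litter 1 (wild type 1 and 2, then mutants 1 and 2) and at 0.23, 1.32, 1.49 and 1.06 in litter 2 (wild type 3 and 4, then mutants 3 and 4). Each litter 2 array was above each litter 1 array. The difference was 1.88 ± 0.33 (SE), 3.69-fold, with an adjusted p of 0.0210, and a second Robo3 probe gave 2.28. Slit1, a secreted repellent of the nervous system, was at -1.43, -1.35, -1.92 and -1.39 in litter 1 and -0.22, 0.40, 0.42 and 0.28 in litter 2, in the same order of arrays. It was higher on every litter 2 array, by 1.74 ± 0.29 (SE, 3.35-fold, adjusted p 0.0179), and the difference was 1.48 among wild type and 2.01 among mutant embryos.

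Sema4f, a membrane-bound semaphorin of neural tissue, was at -4.24, -3.56, -3.77 and -4.18 in litter 1 and -2.14, -1.92, -2.31 and -2.18 in litter 2. The litters did not overlap, and the difference was 1.80 ± 0.28 (SE, 3.48-fold, adjusted p 0.0156). Over the settings tried it ran from 0.63 to 2.74. Sema4f was not called with median scaling, quantile normalization, either normexp setting or the authors' log2 values. A second, dimmer Sema4f probe, well above background on 0 arrays, gave 0.54. Sema3c, a class 3 semaphorin known from the cardiac outflow tract, was at -1.54, -1.84, -1.74 and -1.50 in litter 1 and -0.15, -0.38, -0.34 and -0.41 in litter 2. On this probe it differed by 1.33 ± 0.25 (SE, 2.52-fold, adjusted p 0.0248). A dimmer second Sema3c probe gave 0.73, with litters that overlap, and with the mean of both probes the difference of 1.03 was not called (adjusted p 0.0537). Efna1, with its probe at chr3:89075703-89075762, was the called gene that ran the other way. It was at 4.95, 4.18, 5.12 and 5.08 in litter 1 and 3.08, 3.68, 3.87 and 3.67 in litter 2, so that every litter 2 value lay below every litter 1 value. The difference was -1.26 ± 0.29 (SE), 2.40-fold lower in litter 2, with an adjusted p of 0.0433 and -1.19 among wild type and -1.33 among mutant embryos.

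**Figure D3:**
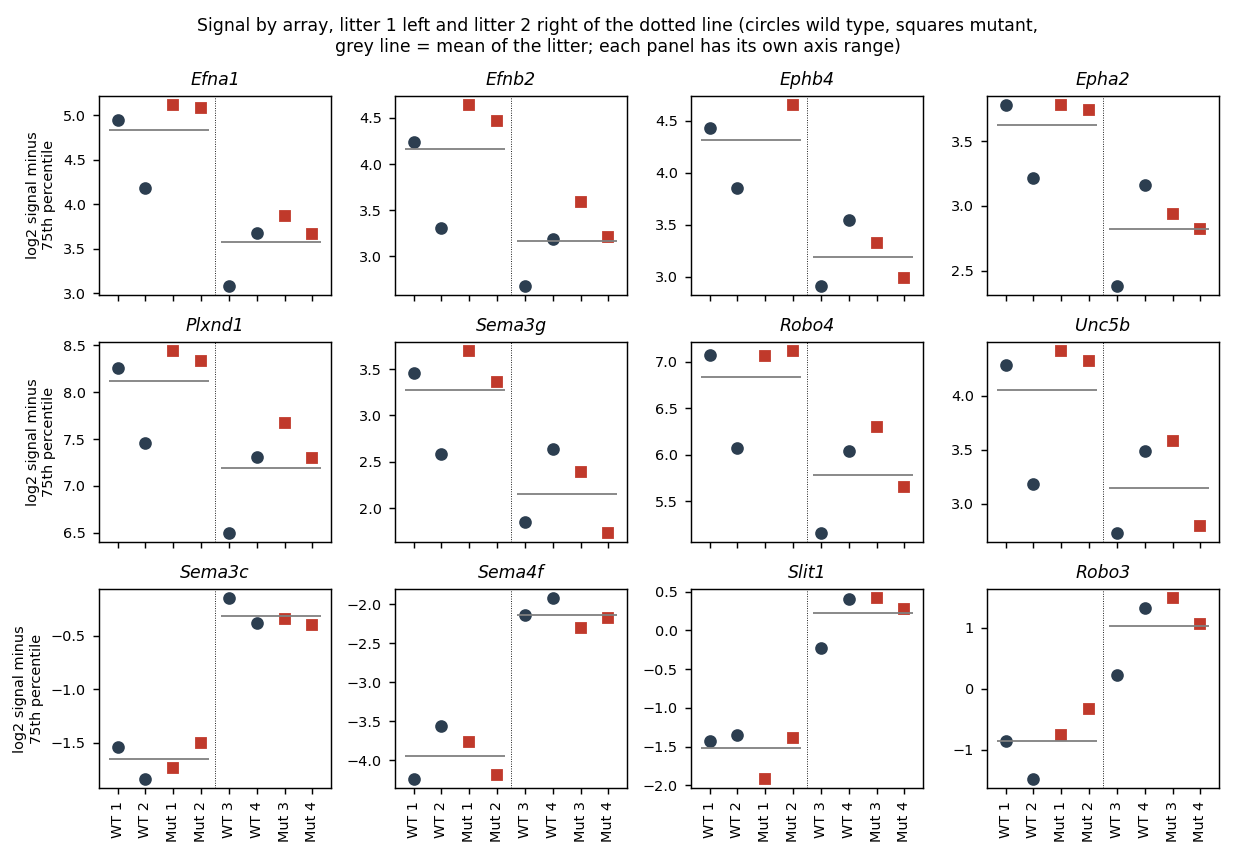
Log2 signal minus the array's 75th percentile of 12 guidance genes on each of the 8 arrays (circles wild type, squares mutant), litter 1 left and litter 2 right of the dotted line, with a grey line at the mean of each litter and an axis range of its own in each panel. Efna1 and the other 7 genes of the upper rows are lower in litter 2 on average, the 4 genes of the bottom row are higher on every litter 2 array, and Ephb4 has 7 points because the spot of mutant 1 was left out.

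Several members known from vessels were lower in litter 2 without passing the adjusted threshold in this fit. Robo4 and Sema3g passed in limma on the authors' log2 values (adjusted p 0.0446 and 0.0319). Plxnd1 was at 8.26, 7.45, 8.44 and 8.33 in litter 1 and 6.50, 7.31, 7.68 and 7.30 in litter 2, Robo4 at 7.07, 6.08, 7.07 and 7.11 and 5.16, 6.04, 6.30 and 5.65, in the order of arrays given for Robo3. In both genes wild type 2 was the low array of litter 1 and wild type 3 the lowest of all. The differences were -0.92 ± 0.31 for Plxnd1 and -1.04 ± 0.34 for Robo4 (SE, adjusted p 0.114 and 0.107). Ephb4 differed by -1.15 ± 0.34, Sema3g by -1.12 ± 0.35 and Efnb2 by -0.996 ± 0.31 (SE, adjusted p 0.0921, 0.0946 and 0.0930). Unc5b at -0.90, Epha2 at -0.80, Plxna2 at -0.77, Sema6d at -0.74 and Robo1 at -0.72 lay on the same side. A second probe of Efnb2, which is far dimmer, gave 0.34, and the dimmer probe of Robo1 gave 0.71. Among ligands, Slit3 was higher by 1.27 ± 0.32 (SE, adjusted p 0.0557) without overlap of the litters, and Slit2, Ntn1 and Ntn4 differed by 0.12, 0.15 and 0.50. Sema3a, Sema3e and Sema3f were at -0.03, 0.05 and 0.18.

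**Figure D4:**
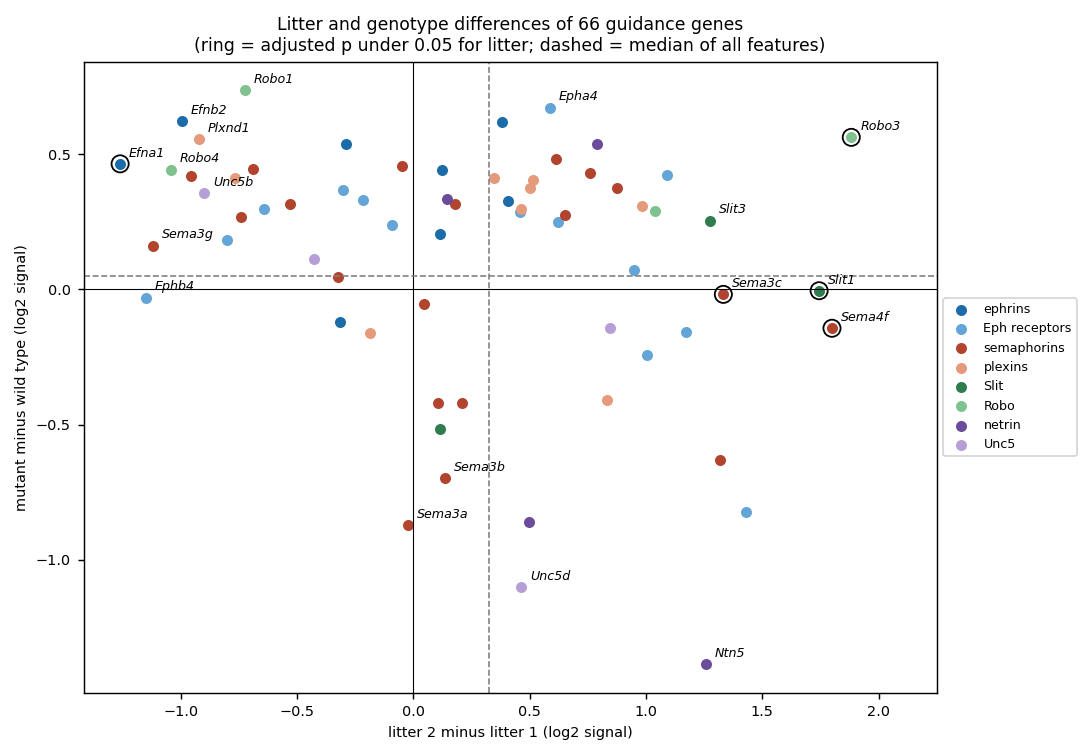
Difference between litters (x axis, litter 2 minus litter 1) against difference between genotypes (y axis, mutant minus wild type) in log2 signal for the 66 guidance genes, coloured by role, with rings on the 5 genes past the adjusted threshold for litter and dashed lines at the medians of all features (0.32 and 0.05). Differences between litters run from -1.26 (Efna1) to 1.88 (Robo3), those between genotypes from -1.38 to 0.74.

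Marker lists moved with litter too. Of the 20 pan-endothelial genes 20 were lower in litter 2, at a median difference of -0.96, and 5 passed the adjusted threshold (0.899% of all features passed in that direction); the list's level was between 4.38 and 5.25 on litter 1 arrays and between 3.43 and 4.43 on litter 2 arrays. All 9 macrophage markers were higher in litter 2 (median 1.51, 6 called, where 4.02% of all features were higher), with a level of -1.07 to -0.39 on litter 1 arrays and 0.85 to 1.20 on litter 2 arrays. So were all 7 erythroid markers (median 2.34, 4 called), at 3.89 to 5.95 against 7.11 to 8.29. Of 12 neural markers 9 were higher (median 0.68, 0 called), at -0.12 to 1.09 against 0.74 to 1.23, and of 12 mesenchyme and pericyte markers 12 were (median 0.59, 0 called), at 1.15 to 1.88 against 1.47 to 2.38. Of 8 epithelial markers 8 were higher (median 0.60, 1 called), of 7 skeletal muscle markers 7 (median 0.83, 1 called) and of 7 Schwann cell and neural crest markers 6 (median 0.75, 0 called). In these bulk samples fewer cells of a type and less RNA per cell cannot be told apart.

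With each array set to its median over the pan-endothelial genes, a scale chosen after the data were seen, every litter difference moved up, and the median of all features went from 0.32 to 1.27. Of the vascular members lower in litter 2, 7 then stood at 0.02 ± 0.12 for Plxnd1, -0.10 ± 0.13 for Robo4, 0.04 ± 0.17 for Unc5b, -0.06 ± 0.15 for Efnb2, -0.25 ± 0.20 for Ephb4, -0.18 ± 0.17 for Sema3g and -0.32 ± 0.14 for Efna1 (SE). Epha2, Plxna2, Sema6d and Robo1 stood at 0.14 ± 0.15, 0.17 ± 0.17, 0.20 ± 0.19 and 0.22 ± 0.13 (SE). The scale shifts every gene of an array alike. Genes that had differed about as much as the pan-endothelial list therefore come out with little difference by construction. Sema3e, Sema3f and Slit3 stood at 0.99 ± 0.51, 1.12 ± 0.14 and 2.22 ± 0.15 (SE). On that scale 39 of 66 genes were called, all higher in litter 2, where 44.2% of all features were called, and Robo3, Slit1, Sema4f and Sema3c were among them. The part of RNA from macrophages, erythroid cells and the other cell types above in the higher members was not tested.

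The number of litter calls depended on single arrays. It was 0 without mutant 1, mutant 2 or mutant 3, 1 without wild type 4, 2 without wild type 1, 3 without mutant 4, 5 without wild type 3 and 8 without wild type 2. The calls over all features moved in like manner, from 1979 of 40247 to 25, 4 and 213 without mutants 1, 2 and 3, to 468, 511, 599 and 1800 without wild type 4, wild type 1, mutant 4 and wild type 3, and to 3997 without wild type 2. Leaving out wild type 2, wild type 3 and mutant 4 at once gave 29 calls (19 higher and 10 lower, beside 14.6% of all features), and array weights gave 29 as well (16 higher and 13 lower, beside 23.2% of all features). With single arrays left out, Robo3 ran from 1.65 to 2.09, Slit1 from 1.59 to 1.92, Sema4f from 1.65 to 1.92, Sema3c from 1.25 to 1.40 and Efna1 from -1.43 to -1.12.

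Of the co-receptors Kdr, the main receptor of vascular endothelial growth factor and a partner of neuropilins, was lower in litter 2 by -1.40 ± 0.31 (SE, adjusted p 0.0387). It was at 6.21, 5.44, 6.22 and 6.25 in litter 1 and 4.15, 4.84, 5.05 and 4.46 in litter 2, and also stands in the pan-endothelial list. Nrp1 and Nrp2 were at -0.73 and -0.89 without passing. Among effectors Srgap3, a GTPase-activating protein downstream of Robo, Dpysl4, of the collapsin response mediators, and Limk2, a kinase of cofilin, were higher in litter 2, by 1.50, 1.55 and 1.17 (adjusted p 0.0271, 0.0431 and 0.0415). The calls were 1 of 22 co-receptors and 3 of 57 effectors, near the 4.92% of all features, so they are no result about these lists. In all, 17 of 57 effectors were higher and 40 lower, with a median of -0.39.

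Robo3 and Robo4 are neighbours on chromosome 9. Their array probes lie 2750 bases apart, Robo4 at chr9:37221547-37221606, and their litter differences had opposite signs, 1.88 and -1.04. The 250 bases before the start of each are printed here beside those of Plxnd1 and Unc5b, which with Robo4 are the receptors of these families best known from endothelium. The sequences are from RefSeq on GRCm38.p6 (Robo3 chr9:37433176-37433425, minus strand; Robo4 chr9:37401722-37401971, plus strand; Plxnd1 chr6:115995006-115995255, minus strand; Unc5b chr10:60831582-60831831, minus strand) and read 5′ to 3′ towards the start. Capitals mark matches on either strand to a GATA motif (AGATAA, its variant TGATAA, and the same pair ending in G, that is AGATAG as well as TGATAG) or an ETS motif (CCGGAA, and separately AGGAAG); a window counts once however many matches it holds.
Robo3: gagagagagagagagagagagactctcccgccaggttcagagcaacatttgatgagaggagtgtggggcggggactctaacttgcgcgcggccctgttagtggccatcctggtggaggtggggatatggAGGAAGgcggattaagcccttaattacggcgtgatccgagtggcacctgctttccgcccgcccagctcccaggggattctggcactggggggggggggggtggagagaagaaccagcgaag
Robo4: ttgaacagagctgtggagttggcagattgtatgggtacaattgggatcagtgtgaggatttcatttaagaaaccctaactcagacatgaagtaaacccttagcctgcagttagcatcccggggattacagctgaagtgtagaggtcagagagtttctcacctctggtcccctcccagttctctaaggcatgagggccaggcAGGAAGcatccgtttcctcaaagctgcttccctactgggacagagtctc
Plxnd1: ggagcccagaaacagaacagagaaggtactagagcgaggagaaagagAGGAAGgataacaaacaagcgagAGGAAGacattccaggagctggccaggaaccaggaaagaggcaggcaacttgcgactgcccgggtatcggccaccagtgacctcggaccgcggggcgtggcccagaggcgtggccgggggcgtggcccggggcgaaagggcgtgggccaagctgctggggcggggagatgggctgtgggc
Unc5b: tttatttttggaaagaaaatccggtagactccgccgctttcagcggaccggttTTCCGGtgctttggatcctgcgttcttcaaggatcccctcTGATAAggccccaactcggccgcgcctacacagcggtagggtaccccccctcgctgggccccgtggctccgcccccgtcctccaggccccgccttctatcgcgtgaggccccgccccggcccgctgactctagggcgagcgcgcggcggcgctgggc
Robo3 and Robo4 each held 1 ETS match and no GATA match, Plxnd1 2 ETS matches and no GATA match, and Unc5b 1 of each. RefSeq promoters were found for 57 of the 66 genes, 73 in all. A GATA motif stood in 9 of these 73 windows (12.3%), beside 26.5% of 32851 promoters, and an ETS motif in 31 (42.5%), beside 38.2%. A match is a run of letters and does not show binding.

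The third comparison asked whether the genotype difference itself differed between litters. It did so for 0 of 66 genes by limma's adjusted p of the interaction, as for 0% of all features, and for 0 at an unadjusted p under 0.05, where 1.22% of features passed. The lowest unadjusted p was 0.133. The median genotype difference of the 66 genes was 0.34 in litter 1 and 0.25 in litter 2.

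The authors' deposited table holds 61 of the 66 genes through the probe used here. Of these, 52 have a log2 fold change above 0 in the authors' deposited table, at a median of 0.56, and 0 have an adjusted p under 0.05 (lowest 0.624). Over the 36368 features tested with the authors' log2 values the median difference was 0.40, so the count is read against a general shift. Most of these fold changes are those found with median scaling (Efna1 0.73 in both), so the table is no separate support. One gene, Ntn5, has an unadjusted p under 0.05 in the authors' deposited table (0.0436, log2 fold change -1.12). For these genes the p-value of that table follows the size of the fold change alone. It therefore does not measure a gene's own spread between embryos. In the limma fit used here Ntn5 had an SE of 0.86 and an unadjusted p of 0.137.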

How the data were processed

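One-colour arrays measured RNA of CD31-enriched cells from 8 embryos, 1 array each. The deposited scanner files hold spot intensity on a linear scale, read with Agilent Feature Extraction 10.7.3.1 and annotated on mm9, per the file headers. This processed intensity is background-subtracted but not scaled between arrays. The authors' deposited table holds log2 values, log2 fold changes and a p-value per probe; the submitters' processing notes name limma, whose version is not given in the sources used here.

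Each array's 75th percentile was subtracted from the log2 of its processed intensity, without control and outlier spots, and replicate spots were averaged. Probes well above background on at least 4 arrays were kept (48110 of 55681), and the brightest probe stood for a gene, giving 40247 features. The tests (limma 3.58.1, R 4.3.3) used lmFit with eBayes, were two-sided, and took Benjamini-Hochberg adjusted p under 0.05 over every feature: genotype alone, litter with genotype in the model, and their interaction. The fit was tested on simulated data. Replicates are separate embryos; arrays carry no read depth, so their number limits the precision. Sample numbers did not pair embryos beyond the shared litter.

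Named genes were 18 set by their known role, those past a threshold, and the lowest unadjusted p of each role, with Nrp1, Nrp2 and, by the same rules, genes of the co-receptor and effector lists; Farp2, Robo2 and Epha6 were chosen after their values were seen. The members and lists were chosen with earlier results of these data known. Other settings covered background correction, scaling, filters, probe choice, array weights, blocks and left-out arrays.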

Additional observations from a re-analysis of the deposited data

How the results depend on the processing

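Over the settings tried, which include scaling on pan-endothelial genes, added after seeing the data, 576 of 688 values kept their direction and their side of the threshold (counts within a factor of 1.5), 68 changed sign, 41 lost a call and 3 gained one; the cause was not tested. With array weights the genotype count was 3 guidance genes and 2 effectors, and in the other settings it was 0. The litter count of 5 (4.92% of all features) became 1 with median scaling (2.52% of all features), 3 with log2 values of the authors' deposited table (4.24%), 8 when a probe had to pass on all 8 arrays (5.33%), 8 after normexp correction plus quantile normalization (3.32%), 29 with array weights (23.2%), 29 without the 3 arrays apart (14.6%), 39 on the pan-endothelial scale (44.2%), and 0 to 8 with single arrays left out. The call with median scaling was Efna1, and those with the authors' log2 values were Efna1, Robo4 and Sema3g, each lower in litter 2. Robo3, Slit1, Sema4f and Sema3c were called in neither of these settings. The ephrin and Eph median was -0.044 on the pan-endothelial scale, and the semaphorin and plexin median was 0.56 with median scaling, 0.58 from the authors' deposited table, -0.035 without the 3 arrays (a fit unbalanced for litter) and -0.036 on the pan-endothelial scale. With the sample number as a replicate block the genotype count was 0 as well, as with litter as a block, and over all features the 18 calls became 0 with either block; the deviations of same-numbered samples correlated at 0.62, -0.029, -0.095 and -0.16.

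Genotype differences that changed sign were all without a call in every setting named here. With quantile normalization, Epha2 was at -0.20, Sema3c at 0.16, Sema3e at 0.13, Sema3f at -0.066, Sema3g at -0.20, Sema4f at 0.080, Slit1 at 0.22 and Unc5b at -0.034. With normexp background correction and quantile normalization, Epha2 was at -0.19, Ntn1 at -0.19, Sema3c at 0.16, Sema3e at 0.021, Sema3f at -0.066, Sema3g at -0.18, Slit1 at 0.20 and Unc5b at -0.018. On the pan-endothelial scale, Epha2 was at -0.15, Ntn1 at -2.8e-05, Sema3f at -0.020, Sema3g at -0.17, Sema6d at -0.066 and Slit3 at -0.080. With median scaling, Ephb4 was at 0.13, Sema3c at 0.25, Sema3e at 0.21, Sema4f at 0.12 and Slit1 at 0.26. With the filter on all 8 arrays, Ephb4 was at 0.17 and Sema3a at 0.096. With array weights, Ephb4 was at 0.57. With litter as a block, Ephb4 was at 0.16. With normexp and the 75th percentile, Ntn1 was at -0.33, Sema3c at 0.010, Sema3e at 0.075 and Slit1 at 0.044. With the mean of all probes, Ntn1 was at -0.11 and Sema3c at 0.0010. Without the 3 arrays apart, Robo3 was at -0.098, Sema3f at -0.014 and Slit3 at -0.28. From log2 values of the authors' deposited table, Sema3c was at 0.25, Sema4f at 0.12 and Slit1 at 0.26. With single arrays left out, the range was -0.067 to 0.40 for Epha2, -0.53 to 0.30 for Ephb4, -0.31 to 0.26 for Sema3c, -0.30 to 0.13 for Sema3e, -0.14 to 0.52 for Sema3g, -0.57 to 0.21 for Sema4f, -0.36 to 0.42 for Slit1 and -0.035 to 0.65 for Slit3. Fits without a single array or without the 3 arrays apart are unbalanced for litter and hold no litter term. Their genotype values therefore mix in the litter difference. Signals near background limit Ntn5 and Epha6, which were not well above background on 2 of 8 arrays.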
